A study of Mus musculus with 6 samples.

Results

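Long noncoding RNAs (lncRNAs) of the nucleus and of neurons were followed in mouse embryonic stem cells and cortical neurons. A set of 7 genes was listed by name, namely Miat, Gm26953, Malat1, Neat1, Pantr1, Snhg11 and Tug1. Every gene sharing at least 1 exonic base with one of them on the opposite strand was added, apart from the Miat and Gm26953 pair, which are each other's opposites. This added 6 genes and gave 13 of the 57010 genes in the count table. The 7 genes were chosen from values of this same comparison, so their levels are given as a description, without a test.

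The samples were 6 wild-type mouse RNA-seq libraries in 2 groups of 3, made from polyadenylated RNA by oligo-dT priming and read as paired ends. The ESC group held embryonic stem cells. The neuron group held primary neurons from cortices of embryonic day 16.5, grown for 7 days in vitro. The labels name no perturbation in either group, and the groups are the pluripotent and neuronal reference states of a study centred on Rai1. The batch label is identical to the group, so batch and cell state cannot be told apart. The library names of neuron replicates 2 and 3 hold the word empty, which the labels do not explain. No label says that replicates came from separate cultures, so p-values measure only the spread between these libraries, which may be technical.

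Nuclear lncRNAs act as RNA molecules, often by holding proteins in a compartment of the nucleus. Malat1 lies in nuclear speckles, bodies rich in splicing factors, and Neat1 is the scaffold of paraspeckles, bodies built around the protein Sfpq and its relatives. Miat, also called Gomafu, is a nuclear RNA of neurons that binds splicing regulators, among them Sf1, the protein that recognises the intron branch point. Tug1 is an lncRNA of many tissues, Pantr1 is transcribed divergently from the cortical transcription factor gene Pou3f3, and Snhg11 is a host gene of small nucleolar RNAs (snoRNAs).

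The sequences of the first pair show which letters of Miat lie opposite Gm26953 and which do not. The branch point motif TACTAAC (the letters that Sf1 binds, with U for T in RNA) was searched on the transcript strand of Miat-205, the 9163-base Miat transcript of GENCODE M21, whose transcripts are built on GRCm38. It occurs 6 times, in clusters at transcript bases 4936 to 5077 and 5584 to 5654, printed with the motif in capitals.
Miat-205 bases 4936 to 5077: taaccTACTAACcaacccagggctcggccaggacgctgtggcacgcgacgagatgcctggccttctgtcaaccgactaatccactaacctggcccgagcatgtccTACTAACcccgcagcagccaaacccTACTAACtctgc
Miat-205 bases 5584 to 5654: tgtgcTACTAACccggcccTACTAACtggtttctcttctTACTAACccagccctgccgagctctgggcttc
Of the 6 copies, 0 touch the 9 stretches, 2153 bases or 23.5% of the transcript, that are the reverse complement of Gm26953 transcripts. The last copy ends at base 5629, and the next such stretch begins at base 5630. Among 1411 genes whose longest transcript has 7000 to 12000 bases, 19.4% held TACTAAC at least once and 21.1% held GTTAGTA, the same motif on the other strand. Miat is among these genes, and the single one of them (0.0709%) with 6 or more copies of TACTAAC was Miat itself. A match is a description of letters and does not show binding.

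The second pair is printed because the counted gene lies wholly within Malat1. The transcript Gm37376-201 has 453 bases and is the exact reverse complement of bases 280 to 732 of the 6983-base Malat1-201. Its first 300 bases are shown with capitals at bases 28 to 159, a run of 132 bases (29.1% of the transcript) covered by 50-base words that also occur in transcripts of 714 other genes. The last 60 bases follow, with the stretch of Malat1 that they face.
Gm37376-201 bases 1 to 300: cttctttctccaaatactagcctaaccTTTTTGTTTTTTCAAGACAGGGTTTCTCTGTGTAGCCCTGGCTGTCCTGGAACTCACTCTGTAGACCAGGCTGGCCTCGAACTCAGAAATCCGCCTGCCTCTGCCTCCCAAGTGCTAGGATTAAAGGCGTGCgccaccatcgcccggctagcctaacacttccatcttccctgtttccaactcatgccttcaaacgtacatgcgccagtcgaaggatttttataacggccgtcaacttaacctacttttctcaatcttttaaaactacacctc
Gm37376-201 bases 394 to 453: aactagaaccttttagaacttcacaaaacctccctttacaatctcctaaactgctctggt
Malat1-201 bases 280 to 339: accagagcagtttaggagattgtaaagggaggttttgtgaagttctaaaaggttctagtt
Gm37376 thus lies near the start of the Malat1 transcript, on the other strand, and part of its letters recurs in transcripts of other genes.

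Libraries held 1368303 to 1775055 counts in ESC and 513425 to 624792 in neurons. Levels are given as CPM, counts relative to the library total after scaling by TMM, a factor that offsets differences in composition. On this scale 3 counts stand for 2.26 to 2.90 CPM in ESC and 3.92 to 4.81 CPM in neurons. Summed ESC markers reached 166 to 243 CPM in ESC and 2.61 to 4.81 CPM in neurons. Summed neuron markers reached 170 to 226 CPM in ESC and 1072 to 1311 CPM in neurons. Nefm made up most of both neuron marker sums, with means of 137 CPM in ESC and 1125 CPM in neurons. The 2 genes facing neuron markers summed to 14.5 to 21.1 CPM in ESC and 1037 to 1220.5 CPM in neurons. A gene facing one of the ESC markers had 13511 to 14161 CPM in ESC and 0 in neurons. Of other cell types, summed levels in neurons were 48.1 to 76.0 CPM for 8 astrocyte markers, 270 to 299 CPM for 9 oligodendrocyte-lineage markers and 130 to 145 CPM for 8 microglia markers. The same sums in ESC were 5.80 to 10.9, 42.9 to 61.9 and 201 to 266 CPM. Mog held 240 CPM of the oligodendrocyte sum in neurons, and Csf1r held 126 CPM of the microglia sum in neurons and 211 CPM in ESC. Genes on the opposite strand of astrocyte, oligodendrocyte-lineage and microglia markers summed to 1274 to 1840, 350 to 477 and 27.2 to 44.4 CPM in neurons and to 169 to 199, 1.81 to 5.27 and 10.5 to 12.6 CPM in ESC. Mag, Tmem119, C1qa, C1qb, C1qc, Postn and Lum had 0 counts in all 6 libraries. Vascular and fibroblast markers stayed at or below 9.05 CPM. The part of other cell types in the levels below was not tested. Neuron replicate 1 stood apart at the Xist locus, since Tsix had 2 counts there and 1934 and 1727 in replicates 2 and 3, and ENSMUSG00002075094.1, which also faces Xist, had 0 counts there and 272 and 184 in the other two. Without that library the log2 fold changes of the 8 tested members and opposite genes moved by at most 0.33 and all kept their sign.

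Miat itself was close to the limit of detection, while the gene on its other strand was among the most counted genes of the neurons. Miat (chr5:112361094-112377261, minus strand, 10436 exonic bases in the deposited table) had 3, 2 and 0 counts in ESC against 5, 2 and 6 in neurons. These are 1.40 ± 1.22 CPM (SD, n = 3) and 6.37 ± 3.32 CPM (SD, n = 3). Scaled to depth every neuron library lay above every ESC library, but by few counts. The lowest neuron library had 2 counts (2.98 CPM) and the highest ESC library 3 counts (2.26 CPM), so little is read from this separation. The pooled ratio of neurons to ESC was 4.37, with a 95% counting interval of 1.46 to 15.7. The gene did not pass the filter on low counts and has no fitted fold change. In bulk RNA, a change in the number of cells that hold an RNA and a change in its amount per cell cannot be told apart.

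Gm26953 (chr5:112363327-112381586, plus strand, 4532 exonic bases) had 1, 2 and 4 counts in ESC against 1533, 1348 and 1363 in neurons. The levels were 2.10 ± 1.44 CPM in ESC and 2065 ± 104 CPM in neurons (SD, n = 3 each). All neuron libraries were far above all ESC libraries, and the gene ranked 17 to 21 among all genes of the neuron libraries. The fitted log2 fold change was 9.90 (SE 0.20). The pooled ratio was 1020 with a counting interval of 495 to 2538. Miat and Gm26953 share 2434 exonic bases, which are 23.3% of the exonic bases of Miat and 53.7% of those of Gm26953. Of the reads counted to either gene, Miat held 0.325% (Clopper-Pearson 95% interval 0.106 to 0.757%), 0.148% (0.0179 to 0.534%) and 0.438% (0.161 to 0.951%) in neuron replicates 1 to 3. In ESC the pair had 4 counts in each library, too few to give a share. How reads were assigned to a strand is not given in the sources used here. Each value given for a gene, with or without an opposite gene, is therefore that of the gene as counted in the table. Whether its reads, in shared bases or outside them, came from that gene's strand was not tested. Among the markers, 1 gene facing an ESC marker had 13511 to 14161 CPM in ESC, where the 10 ESC markers summed to 166 to 243 CPM. The counting intervals given here and below cover counting error only.

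**Figure D1:**
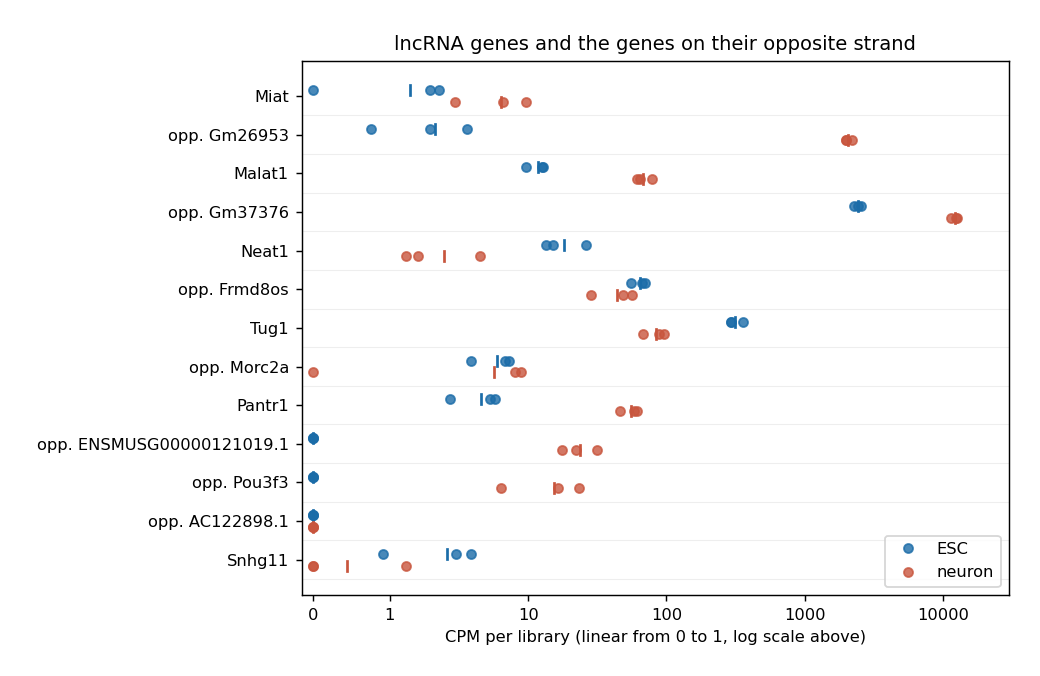
CPM per library for the 13 genes, with each dot 1 library, short bars the means of 3 libraries, and the genes on the opposite strand (opp.) under the lncRNA they face. Gm26953 and Gm37376 lie highest in neurons, at 2065 and 12152 CPM, while Miat and Malat1 average 6.37 and 67.8 CPM there.

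Malat1, the RNA of nuclear speckles, showed the same arrangement. Malat1 (chr19:5845717-5852704, minus strand, 6988 exonic bases) had 17, 10 and 14 counts in ESC against 60, 41 and 40 in neurons, or 11.7 ± 1.77 and 67.8 ± 9.19 CPM (SD, n = 3 each). The groups did not overlap, and the log2 fold change was 2.52 (SE 0.28). Gm37376 (chr19:5851969-5852421, plus strand), an unclassified transcript with the biotype TEC, had 3394, 2372 and 2701 counts in ESC against 9495, 8496 and 7115 in neurons. The means were 2431 ± 130 and 12152 ± 662 CPM (SD, n = 3 each), again without overlap, with a log2 fold change of 2.32 (SE 0.09). It ranked 69 to 81 among all genes in ESC libraries and 3 to 4 in neuron libraries, while Malat1 ranked 4705 to 5262 and 1706 to 2045. All 453 exonic bases of Gm37376 lie opposite Malat1, whose own share of the pair's reads was 0.420 to 0.516% in ESC and 0.480 to 0.628% in neurons. As counted, the division of reads between the 2 genes was nearly the same in both groups, while both were higher in neurons. Gm37376, a 453-base stretch opposite a 6988-base gene, took 99.4 to 99.6% of the counts given to either. Reads within these shared bases were thus not given to both genes alike.

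Neat1, the paraspeckle scaffold, went the other way from Malat1, with more counts in ESC than in neurons and low counts throughout. Neat1 (chr19:5874736-5895898, minus strand, 21163 exonic bases) had 20, 14 and 29 counts in ESC against 1, 3 and 1 in neurons. This was 18.3 ± 6.94 CPM against 2.46 ± 1.75 CPM (SD, n = 3 each), with no overlap. The log2 fold change was -2.84 (SE 0.56), and the pooled ratio of ESC to neurons was 7.49 with a counting interval of 3.05 to 23.9. Frmd8os (chr19:5895651-5901416, plus strand), an antisense transcript of the neighbouring gene Frmd8, shares 128 exonic bases with Neat1. It had 74, 73 and 74 counts in ESC against 37, 19 and 35 in neurons, at 64.4 ± 7.78 and 44.2 ± 14.3 CPM (SD, n = 3 each). Its groups overlapped, and its log2 fold change of -0.54 (SE 0.24) became 0.195 when libraries were scaled by total counts. Neat1 held 16.1 to 28.2% of the pair's reads in ESC and 2.63 to 13.6% in neurons. These shares did not overlap between the groups, but most of their counting intervals did. That of neuron replicate 2 (2.91 to 34.9%) overlapped the interval of every ESC library. Those of neuron replicates 1 and 3, reaching up to 13.8 and 14.5%, overlapped those of ESC replicates 1 (13.5 to 30.9%) and 2 (9.09 to 25.5%).

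At the Tug1 locus most counts were assigned to the lncRNA. Tug1 (chr11:3589785-3599673, minus strand, 9734 exonic bases) had 393, 369 and 322 counts in ESC against 68, 64 and 42 in neurons. The means were 315 ± 36.7 and 83.8 ± 14.7 CPM (SD, n = 3 each), without overlap, and the log2 fold change was -1.90 (SE 0.16). Morc2a, on the plus strand at chr11:3599191-3640477, encodes an ATPase that compacts silenced chromatin and shares 483 exonic bases with Tug1. It had 9, 4 and 8 counts in ESC against 0, 6 and 5 in neurons, and its pooled ratio of neurons to ESC was 0.881 (counting interval 0.384 to 1.91). Tug1 held 97.6 to 98.9% of the pair's reads in ESC and 89.4 to 100% in neurons.

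At the Pantr1 locus the lncRNA and its divergent neighbour Pou3f3 were both higher in neurons. Pantr1 (chr1:42629754-42734584, minus strand, 8483 exonic bases) had 7, 6 and 3 counts in ESC against 45, 31 and 38 in neurons, or 4.60 ± 1.65 and 55.3 ± 7.94 CPM (SD, n = 3 each). The groups did not overlap, and the log2 fold change was 3.55 (SE 0.35). Opposite its first exons lie 3 genes. ENSMUSG00000121019.1 (chr1:42733258-42733694, 437 exonic bases, 393 of them shared with Pantr1) had 0 counts in every ESC library and 24, 15 and 11 in neurons, at least 9.05-fold higher against a floor of 3 counts per ESC library. Pou3f3, which encodes the transcription factor Brn1 of upper cortical layers (chr1:42734085-42742336), shares 304 bases. It had 0 counts in every ESC library and 18, 11 and 4 in neurons, at least 5.88-fold higher against the same floor. AC122898.1, which shares 264 bases, had 0 counts in all libraries, which allows up to 2.90 CPM in an ESC library and 4.81 CPM in a neuron library. In neurons Pantr1 held 65.2 to 77.6% of the counts given to either Pantr1 or ENSMUSG00000121019.1. It held 71.4 to 90.5% of those given to either Pantr1 or Pou3f3.

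Snhg11 (chr2:158217558-158228071, plus strand, 8527 exonic bases) is the 1 listed gene apart from the Miat pair to which no opposite gene was added, since none shares an exonic base with it. It had 4, 4 and 1 counts in ESC against 1, 0 and 0 in neurons. The groups overlapped, and the pooled ratio of ESC to neurons, 5.35, had a counting interval of 0.741 to 234, so no difference was detectable at these counts. As no gene shares an exonic base with Snhg11 on the opposite strand, counts on its other strand are not known. GENCODE M21 types it as protein coding and RefSeq as an lncRNA. The small genes annotated inside the lncRNAs on the same strand had 0 counts for all 4 in Miat, the 1 in Malat1, the 3 in Neat1 and the 4 in Tug1. The 2 inside Snhg11 had 1 count in all.

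**Figure D2:**
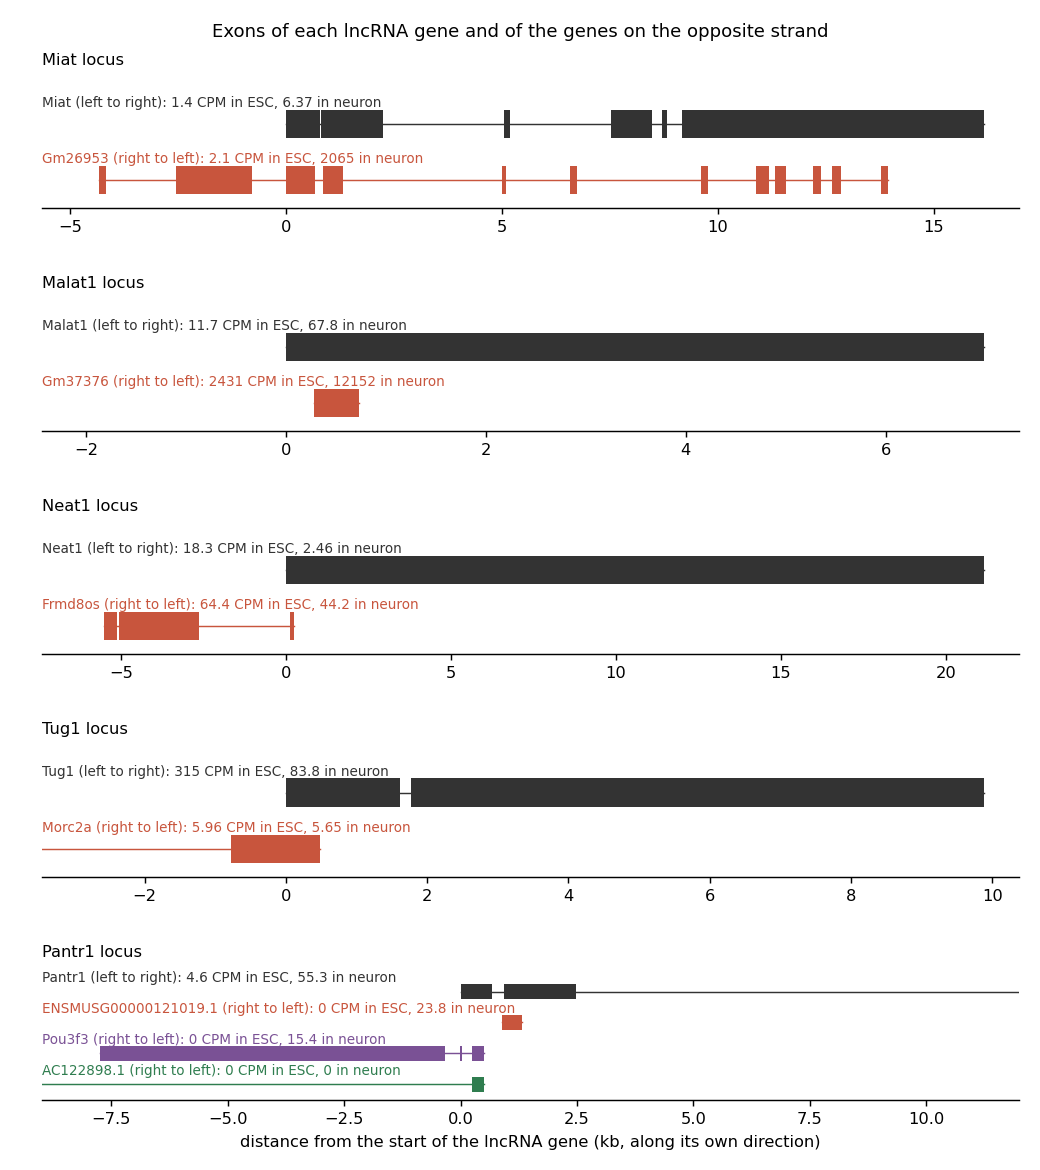
Exons (boxes) of 5 lncRNA genes and of the genes on their opposite strand, on an axis of kb from the lncRNA's start along its own direction, with mean CPM per group beside each name; the Pantr1 panel shows only the first 12 kb of a longer gene and Morc2a and AC122898.1 run past the left edge. Gm37376 lies inside the Malat1 exon, whereas Frmd8os and Morc2a meet only the first bases of Neat1 and Tug1.

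Levels of different genes were compared per kb of exon. The length was that of all exonic bases of a gene, such as 21163 for Neat1, whichever of its transcripts were present. How well oligo-dT priming captured each RNA was not tested, so the order below is that of the counts. In ESC the order among the 7 listed genes was Tug1 at 32.3 ± 3.77 CPM per kb, Malat1 at 1.68 ± 0.253, Neat1 at 0.864 ± 0.328, Pantr1 at 0.542 ± 0.195, Gm26953 at 0.464 ± 0.318, Snhg11 at 0.304 ± 0.179 and Miat at 0.134 ± 0.117 CPM per kb (SD, n = 3). Tug1 stood above the others by more than their spread, and Malat1 above Neat1, while each neighbouring pair from Neat1 down to Miat differed by less than the larger SD of the pair. In neurons Gm26953 came first at 456 ± 22.9 CPM per kb. Malat1 (9.71 ± 1.31), Tug1 (8.61 ± 1.51) and Pantr1 (6.52 ± 0.936 CPM per kb) followed, the first and second of these within their spread. Miat had 0.611 ± 0.318, Neat1 0.116 ± 0.0826 and Snhg11 0.0510 ± 0.0884 CPM per kb. Gm37376 was higher than all of these in both groups, at 5367 ± 288 CPM per kb in ESC and 26826 ± 1461 CPM per kb in neurons.

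Summed over their loci, the listed lncRNAs and the strands they face differed in how much they took of each library. Miat, Malat1, Neat1, Pantr1, Snhg11 and Tug1 together held 0.0250, 0.0296 and 0.0250% of all counts in ESC and 0.0288, 0.0253 and 0.0247% in neurons, ranges that overlap. Their opposite genes, Gm26953 included, held 0.196, 0.179 and 0.189% in ESC and 1.78, 1.78 and 1.66% in neurons. Most of the second sum was Gm37376 in both groups.

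The comparison of all genes gives the background for these values. With edgeR's quasi-likelihood test and Benjamini-Hochberg adjustment, 6119 of 7150 tested genes (85.6%) had an adjusted p under 0.05, 3358 of them (47%) higher and 2761 (38.6%) lower in neurons. Of the 13 genes, 8 were tested and 8 passed, 5 higher and 3 lower in neurons. Because this contrast chose the genes and most genes passed, nothing is read from that count. Over all tested genes the median was 0.37 (log2) under TMM and 1.10 under total counts, a shift of 0.73. Under total counts 4050 genes were called higher and 2136 lower. Gm26953, Gm37376, Malat1 and Pantr1 lay above, and Neat1 and Tug1 below, both 0 and the median of all genes under each of the 3 scalings.

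**Figure D3:**
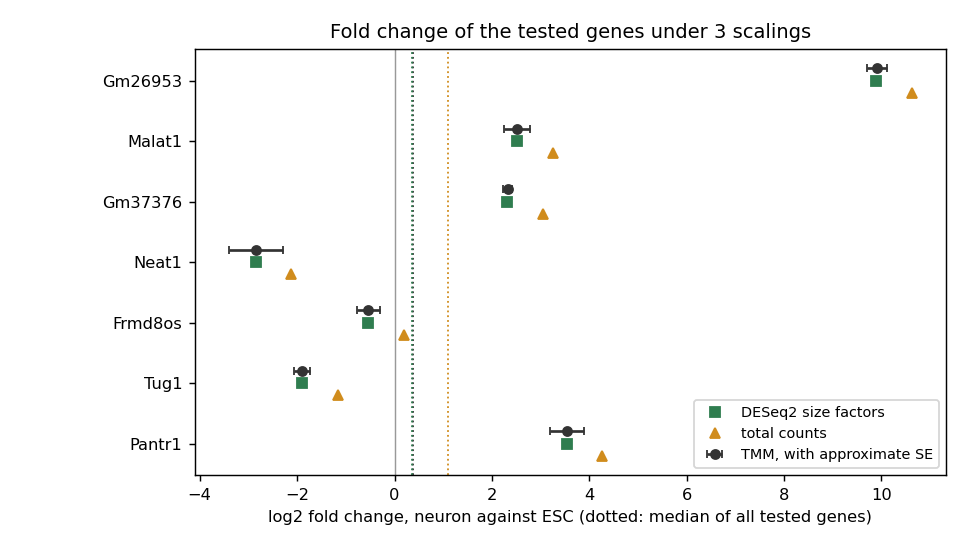
Log2 fold change, neuron against ESC, for 7 tested genes under TMM (with approximate SE), DESeq2 size factors and total counts; dotted lines mark the median of all tested genes under each scaling. Frmd8os alone crosses 0, from -0.54 to 0.195 under total counts.

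Profiles over the 6 libraries were compared by the Euclidean distance between centred log2 CPM, and the 3 nearest tested genes were named for each gene. For Gm26953 these included Gm33366 and 4930488L21Rik, at distances of 0.482 and 0.766. The latter lies opposite exons of Gnao1, which encodes a G protein subunit of neuronal signalling. Malat1 was nearest to Mad2l2 (0.230), ENSMUSG00002075149.1 (0.233) and Gss (0.246), and Gm37376 to Zfp609 (0.145), ENSMUSG00002075149.1 (0.174) and Rasal1 (0.189). Neat1 was nearest to Bax, Prg4 and AC162182.3 (0.362 to 0.555), Tug1 to A630052C17Rik, Gm14965 and Gm43714 (0.231 to 0.247), and Pantr1 to Stk24, Ldhd and Gm29994 (0.252 to 0.344). For Frmd8os they were Fndc9, 1700019A23Rik and Gm37500 (0.289 to 0.305), and for ENSMUSG00000121019.1 CT573017.1, Gm13188 and Gm43948 (0.107 to 0.202). All these profiles rest on the same 6 libraries in 2 groups.

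Genes of the compartments in which these RNAs work were examined as fixed lists. In every list, rose and fell refer to counts as given in the table, and the strand that the reads came from was not tested. Of 25 nuclear speckle genes, the body of Malat1, 13 were tested, and in neurons 10 fell and 1 rose. The share called, 84.6%, is close to the 85.6% of all tested genes, of which 38.6% fell and 47% rose. The median of the 13 on the log2 scale was -1.45, beside 0.37 over all tested genes. Under total counts 7 fell and 3 rose. Leaving out a library changed how many genes passed the filter, with 7 of 9 tested genes called without ESC replicate 3, 17 of 21 without neuron replicate 2 and 17 of 22 without neuron replicate 3. Son, a scaffold protein of speckles, was the gene that rose, from 47.0 ± 9.65 to 103 ± 21.4 CPM (SD, n = 3 each), or by 1.15 on the log2 scale (SE 0.21; adjusted p = 6.88e-06, edgeR). Srrm1, a splicing coactivator, fell from 35, 24 and 33 counts to 1, 0 and 1 (pooled ratio of ESC to neurons 27.3, counting interval 7.36 to 229). U2af2, which binds the polypyrimidine tract, fell by 1.93 on the log2 scale. Acin1 fell by 1.45 and Srsf9 by 0.70 on that scale. The call of Srsf9 was lost under 6 of 13 alternatives (edgeR or DESeq2 adjusted p 0.0798 to 0.941), with a change of sign under total counts. Thoc1, of the mRNA export complex, had 272 ± 46.1 and 248 ± 67.4 CPM (SD, n = 3 each) and did not pass (log2 fold change -0.13, edgeR adjusted p = 0.449). These genes too face others: Donson, opposite Son, had 718, 615 and 635 counts in ESC against 251, 217 and 170 in neurons, the reverse direction. Gm17606, 1 of 3 genes opposite Acin1, went from 2193, 2546 and 1718 counts to 217, 193 and 203, and Usp14, opposite Thoc1, from 659, 689 and 586 to 50, 77 and 41. All 3 had more counts in ESC than the list gene they face.

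Among 24 paraspeckle genes, the proteins around Neat1, 14 were tested, 11 (78.6%, beside 85.6% of all genes) fell and 0 rose, with a median of -2.08. DESeq2's Wald test also gave 11 and 0, and at an unadjusted p under 0.05 edgeR gave 0 higher. Under total counts 10 fell and 1 rose. Sfpq, a core paraspeckle protein, fell from 27.0 ± 5.75 to 9.31 ± 3.43 CPM, and Hnrnpk, which Neat1 bodies need to form, from 173 ± 18.9 to 34.9 ± 7.996 CPM (SD, n = 3 each). Tardbp (TDP-43) fell by 2.54, Hnrnph1 by 1.17 and Ubap2l by 3.86 on the log2 scale. Hnrnpa1, a splicing repressor, fell from 63, 22 and 70 counts to 1, 0 and 0 (pooled ratio of ESC to neurons 92.1, counting interval 16.3 to 3662). Zc3h6 did not pass (-0.47, edgeR adjusted p = 0.0642). Several of these genes also face a counted gene on the other strand, such as Rmi1 opposite Hnrnpk, with 3058 to 4343 counts in ESC and 249 to 265 in neurons.

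Of 25 splicing regulators, among them the Miat-binding proteins Sf1, Qk and Celf3, 7 were tested, 2 rose and 3 fell (71.4% called), with a median of -0.06. Under total counts 3 rose and 2 fell. Without ESC replicate 1, and without ESC replicate 3, 3 of 4 tested genes were called. Celf3, a neuronal RNA-binding protein, rose from 3.62 ± 1.84 to 63.6 ± 13.9 CPM (SD, n = 3 each; log2 fold change 4.15, edgeR adjusted p = 4.84e-13). Its opposite gene Riiad1 went from 1, 0 and 0 counts in ESC to 188, 186 and 168 in neurons. Sf1 fell by 2.17 (edgeR adjusted p = 2.24e-05), Ptbp1, which represses neuronal exons, fell by 0.94, and Celf4 rose by 0.94 (edgeR adjusted p = 0.045). The call of Celf4 was lost under 6 of the 8 alternatives that tested it (edgeR or DESeq2 adjusted p 0.0731 to 0.238), among them DESeq2's Wald test and the replicate block, and that of Ptbp1 under 2 of 12 (0.0693 and 0.516). Qk had 13.2 ± 4.71 and 13.7 ± 2.43 CPM and Elavl1 34.2 ± 2.29 and 32.6 ± 9.18 CPM (SD, n = 3 each), and neither passed. As counted, Srrm4, the activator of neuronal microexons, fell from 296, 219 and 272 in ESC to 1 in each neuron library. The pooled ratio of ESC to neurons was 156 (counting interval 53.2 to 758). Srrm4os, on the opposite strand, went the other way, from 6, 1 and 6 counts to 127, 122 and 109. Srrm4 and Srrm4os share 68 exonic bases. Whether the reads counted to each came from its own strand was not tested. Ptbp1 and Qk were named after their values were seen.

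Of 29 other named lncRNAs, 28 were found, 7 were tested, 4 rose and 2 fell (85.7% called), with a median of 1.62. Pantr2, transcribed from the other side of Pou3f3, had 0, 0 and 1 counts in ESC against 54, 44 and 52 in neurons (pooled ratio 252, counting interval 44.6 to 10032). Mir9-3hg, a host of the neural microRNA miR-9, was at 0 in ESC and had 24, 16 and 9 counts in neurons, at least 8.84-fold higher against 3 counts per ESC library. The imprinted lncRNA Meg3 fell by 2.11. As counted, Xist, the RNA of X inactivation, fell from 1514, 1452 and 1160 in the ESC libraries to 2, 7 and 9 in neurons. Its antisense Tsix shares 1980 exonic bases with it. Tsix had 4, 0 and 0 counts in ESC and, in neurons, the split of libraries given above. Whether the reads counted to Xist came from its own strand was not tested. Tsix did not pass the filter. Over all 13103 annotated lncRNA genes other than the 13, 2257 were tested, 1162 rose and 868 fell (89.9% called), with a median of 0.63. This median joins unlike parts. Of 1785 tested lncRNAs sharing exonic bases with an opposite-strand gene, 792 rose and 796 fell, with a median of -0.0012. Of 472 sharing none, 370 rose and 72 fell, with a median of 4.42. The cause of this difference was not tested.

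Of 19 snoRNA host genes, the class of Snhg11, 16 were found, 3 were tested and 2 were called (66.7%). Gas5 rose by 0.80 (14.4 ± 0.925 to 24.8 ± 7.66 CPM, SD, n = 3 each; edgeR adjusted p = 0.0259) and Snhg20 fell by 3.31 on the log2 scale. Snhg14, whose transcript runs antisense to Ube3a in neurons, did not pass (-0.35, edgeR adjusted p = 0.182). The call of Gas5 was lost under 7 of 12 alternatives (edgeR or DESeq2 adjusted p 0.0605 to 0.146). With any ESC replicate left out, 0 of 2 tested genes passed edgeR's test, and 0 at an unadjusted p under 0.05. Snhg20 was not among the genes tested then. Its call was lost under 0 of the 9 alternatives that tested it. Without neuron replicate 1 the count was 1 of 4 tested. Ube3a itself, on the other strand of Snhg14, had 7, 7 and 5 counts in ESC against 306, 409 and 160 in neurons.

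**Figure D4:**
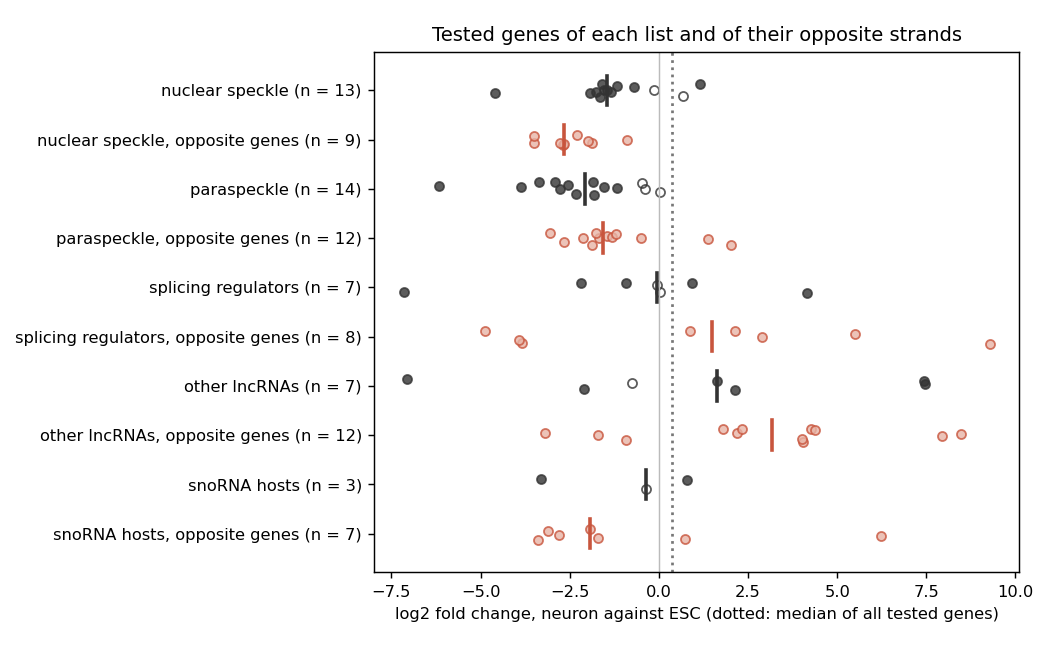
Log2 fold change, neuron against ESC, of the tested genes in 5 lists (black, filled where edgeR's adjusted p was under 0.05) and of the genes on their opposite strands (red, no call shown); bars mark medians, the dotted line the median of all tested genes, and Mir9-3hg, at 0 counts in ESC, stands at a fitted value. Speckle and paraspeckle genes lie mostly left of 0, with medians of -1.45 and -2.08, and the genes facing them have medians of -2.66 and -1.57.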

How the data were processed

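The values are raw counts of each gene as deposited by the authors, in 1 table that also lists exon positions, strand and gene length. Per the submitters' processing notes, cutadapt, STAR and RSEM were used with GRCm39 (mm39), to which the printed positions are taken to belong. The counting tool and its strand setting are not given in the sources used here. The counts were used as deposited. Symbols came from the reference name table (91.3% of genes), and gene types and transcript sequences from GENCODE M21, matched by identifier. Opposite-strand overlaps of exons were found with bedtools 2.31.1.

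Low counts were removed with filterByExpr of edgeR at a minimum count of 10. All 6 libraries were fitted with edgeR 4.0.16 (TMM, glmQLFit robust, glmQLFTest) without covariates, and p-values were Benjamini-Hochberg adjusted over 7150 genes. SEs are approximate, from the F statistic. Ratio intervals are conditional binomial and shares Clopper-Pearson. The steps were tested on simulated counts. The members and lists were chosen with earlier results of these data known. Named were the members, their opposite genes, of each list the 3 highest by mean CPM and the 2 highest and 2 lowest called fold changes, and the 3 nearest profiles, of which 1 for Gm26953 is not reported here. The opposite-strand genes of the lists were examined after the values were seen. Alternatives were DESeq2 1.42.0 (size factors, Wald test), total counts, other filters, a replicate block, leaving out each library, and, added later, only genes sharing no exonic base.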

Additional observations from a re-analysis of the deposited data

How the results depend on the processing

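Of the tested members and opposite genes, all kept the sign of their log2 fold change under every alternative that could fit them except Frmd8os. Its value went from -0.54 to 0.195 under total counts, a scaling that moved the median of all tested genes by 0.73. Without a low-count filter, 11762 of 28820 tested genes and 3186 of 6732 annotated lncRNAs were called. Of the lists, 20 of 25 speckle, 18 of 24 paraspeckle and 11 of 25 splicing genes were called. So were 14 of 26 other lncRNA and 6 of 15 snoRNA host genes. With a mean of at least 10 counts, 3 of 7 splicing regulators were called, beside 4979 of 5971 genes. DESeq2's Wald test called 1 of 3 snoRNA hosts, beside 5774 of 7150 genes. When genes with any exonic base on an opposite-strand exon were left out, 1950 of 2265 genes and 394 of 436 lncRNAs were called. In this smaller set 6 of 7 speckle, 7 of 7 paraspeckle and 0 of 1 splicing genes were called by edgeR. At an unadjusted p under 0.05 edgeR also gave 0 splicing genes, and no snoRNA host could be tested. Leaving out each library gave 5430 to 7353 calls among 6418 to 9200 tested genes and 1928 to 2245 among 2172 to 2571 lncRNAs. Calls were 7 to 17 among 9 to 22 tested speckle genes and 10 to 13 among 11 to 16 paraspeckle genes. They were 3 to 7 among 4 to 12 splicing genes. For other lncRNAs they were 7 to 9 among 9 to 11, and for snoRNA hosts 0 to 2 among 2 to 4. The replicate block called 6088 of 7150 genes, but numbers do not pair samples: same-numbered deviations correlated at 0.0189, 0.0039 and -0.0223.

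The lowest genes had few counts: Miat, Snhg11, Pou3f3, Morc2a and AC122898.1 did not pass the filter, and 3 counts stand for up to 4.81 CPM in a neuron library. In the same neuron libraries Gm26953, opposite Miat, had 1533, 1348 and 1363 counts. The parts of depth and of strand assignment in the low counts were not tested. Batch and group cannot be told apart. Gene-level counts do not show where in a gene reads lie.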
